A study of Mus musculus with 7 samples.

Results

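The interferon response and MHC genes are a set of 50 genes, listed by symbol, that cells turn on after an interferon signal or use to show peptides to T cells. They were compared in G1E cells, a mouse line of red cell precursors whose maturation is halted because GATA1 is missing. The Lockd knockout cells, in which CRISPR/Cas9 had been used to remove the long non-coding RNA gene Lockd, were measured on 4 arrays, and control G1E cells with an intact Lockd gene on 3. The series' design text speaks of clones of the line, but the labels do not say which arrays share a clone or a culture, so p-values measure only the spread between these arrays, which may be technical. The labels name no interferon treatment for either group. Of the 50 genes, 45 had a probeset with exactly 1 annotated symbol, out of 22180 genes measured that way. The probesets of Oas1a, Gbp2, H2-D1 and H2-T22 carry several symbols and Ifi44 is not named in the annotation, so these 5 were not analysed here. For Ifi35 and Tapbp, which had 2 such probesets each, the one with the higher mean over all 7 arrays was used. The members were sorted by role into 8 genes of sensing and signalling, 23 antiviral effectors and 14 genes of antigen presentation.

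Type I interferons bind the receptor pair encoded by Ifnar1 and Ifnar2, which activates the kinases JAK1 and TYK2. The complex ISGF3, which contains STAT2 and IRF9, then binds an interferon-stimulated response element (ISRE) in the promoters of its target genes. Type II interferon acts through gamma-activated sites (GAS) and raises IRF1 and the class II transactivator CIITA. MHC class I molecules, with beta-2 microglobulin as their light chain, are made by nearly all nucleated cells and present peptides that the TAP transporter has carried into the endoplasmic reticulum. MHC class II molecules belong mainly to B cells, dendritic cells and macrophages. Erythroid cells lower their class I molecules as they mature.

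The promoters of the members were searched for the element that ISGF3 binds. RefSeq promoter windows of the assembly GRCm38.p6, each from 250 bases before to 50 bases after an annotated start, were found for 37 of the 50 listed genes, and 13 had no entry, among them Oas1b, H2-Ab1 and Ciita. The ISRE core was searched on both strands as GAAA, any 2 bases and GAAA again, which reads TTTC, any 2 bases and TTTC on the other strand. It was present for 16 of the 37 genes (43.2%), against 3.99% of the 27025 genes with a window. The 6 stretches that follow are shown because they carry this core, in capitals, in a signalling gene, effectors of several families and the class I light chain. They are written 5′ to 3′ on the strand of the gene.
Isg15, chr4:156200856-156200915, minus strand: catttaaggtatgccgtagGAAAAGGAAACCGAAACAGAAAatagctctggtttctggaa
Ifit1, chr19:34640769-34640828, plus strand: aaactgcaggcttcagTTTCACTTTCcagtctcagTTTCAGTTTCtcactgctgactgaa
Ifit3, chr19:34583365-34583424, plus strand: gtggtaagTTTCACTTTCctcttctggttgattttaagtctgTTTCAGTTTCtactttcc
Bst2, chr8:71537565-71537624, minus strand: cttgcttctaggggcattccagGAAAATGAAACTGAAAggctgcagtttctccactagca
Stat2, chr10:128270251-128270310, plus strand: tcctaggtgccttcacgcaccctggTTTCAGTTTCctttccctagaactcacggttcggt
B2m, chr2:122147523-122147582, plus strand: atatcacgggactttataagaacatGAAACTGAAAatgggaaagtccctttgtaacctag

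Isg15 holds 3 overlapping copies of the core and Bst2 holds 2, while Ifit1 and Ifit3 hold 2 separate copies each. By role, the core was present for 11 of 20 effectors with a window, 2 of 5 sensing and signalling genes (Stat2 and Ifih1) and 3 of 12 genes of antigen presentation. The GAS letters TTCNNNGAA, which read the same on both strands, were present for 8 of the 37 members (21.6%), against 9.55% of all genes, and 2 of these matches, in Bst2 and Ifitm3, overlapped an ISRE core. The letters CCAAT or ATTGG, the Y box that the factor NF-Y binds in MHC promoters, were present for all 12 genes of antigen presentation with a window, against 41.1% of all genes. This motif is short and common and was counted anywhere in the window, whether or not NF-Y binds there. It was present for 8 of the 20 effectors. A stretch of H2-Eb1 and one of H2-Aa, which encode class II chains, show it in capitals.
H2-Eb1, chr17:34305792-34305851, plus strand: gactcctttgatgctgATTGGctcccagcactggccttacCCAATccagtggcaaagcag
H2-Aa, chr17:34287840-34287899, minus strand: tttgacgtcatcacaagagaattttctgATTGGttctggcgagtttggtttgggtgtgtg

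**Figure D1:**
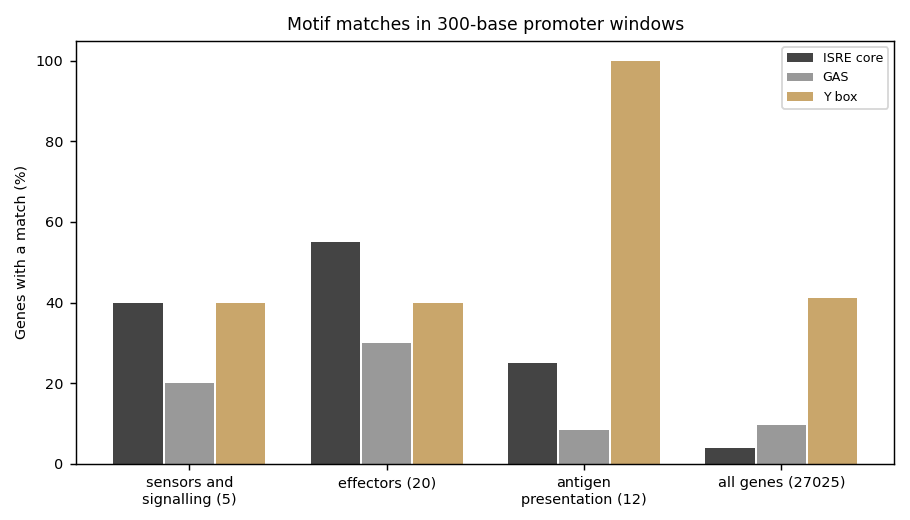
Share of genes (%, vertical axis) whose promoter window holds a match to the ISRE core, the GAS letters or the Y box, for the 3 role groups and for all genes, with the number of genes in brackets. The ISRE core stands at 55% of effectors against 3.99% of all genes, and the Y box letters, counted anywhere in the window, at 100% of the genes of antigen presentation against 41.1%.

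The deletion was checked first, and marker genes of several cell types were read. Lockd had log2 values of 5.09, 5.15, 4.17 and 5.15 on the knockout arrays, against 7.89, 8.04 and 7.80 on the control arrays. Its difference, knockout minus control, was -3.02 (SE 0.23, limma adjusted p 0.0162), and Cdkn1b, the neighbouring p27 gene, differed by -1.14 (SE 0.10, limma adjusted p 0.0251). These 2 were the only probesets of 23521 that passed (0.0085%). No probeset passed without knockout replicate 1 or 4 or without any 1 of the control arrays. Both genes passed without knockout replicate 2. Without knockout replicate 3, 2 probesets passed. Lockd was among them and Cdkn1b was not (limma adjusted p 0.118), and the other probeset was not identified here. The median level over all genes was 5.72, and all 7 measured erythroid markers and all 3 progenitor markers lay above it. None of the 4 measured B cell markers or 5 T cell markers did, and 2 of 8 macrophage and dendritic cell markers, Cd68 and Marco, did. Probesets differ in brightness, so a place above or below this median is no detection call. Summed log2 levels of the macrophage and dendritic cell list ran from 42.56 to 44.14 in knockout and from 42.89 to 43.50 in control cells, and those of the B cell list from 18.84 to 19.58 and from 18.81 to 19.91. The arrays correlated at 0.993 to 0.996 over the tested probesets. In bulk RNA, fewer cells of a type and less RNA per cell cannot be told apart.

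Loss of Lockd left no member of the interferon and MHC set past the test. By limma, with p adjusted by Benjamini-Hochberg over the 23521 probesets, 0 of the 45 members passed the threshold of 0.05, where 0.00902% of all genes did, and the smallest adjusted p was 0.999. At an unadjusted p under 0.05 there were 3 members (6.67%), against 4.61% of all genes. These were Ciita and H2-Ab1, which were higher in knockout cells, where 2.24% of all genes were higher at that level, and Oas1b, which was lower, where 2.37% were. The knockout and control arrays did not overlap for 4 members (8.89%), namely these 3 and H2-DMa, against 5.19% of all genes. By direction, 2 members were higher without overlap, where 2.65% of all genes were, and 2 were lower, where 2.54% were. The shares of members lay near those of all genes.

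The members divided about evenly, with 22 higher and 23 lower in knockout cells and a median difference of -0.01, beside 0.01 for all genes. The differences ran from -0.35 for Oas1b to 0.25 for Ciita on the log2 scale. The 95% intervals of all 45 members lay between -0.79 and 0.53, so that each excluded a 2-fold difference of the array value, and those of 39 members lay within 0.5 on either side of 0. RMA values carry no detection call and background compresses differences at dim probesets, so the intervals bound the difference of the array value and not that of the transcript. The mean level of 25 members exceeded the median over all genes. That count describes how bright the probesets were, because probesets differ in their response and cannot rank genes by level.

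**Figure D2:**
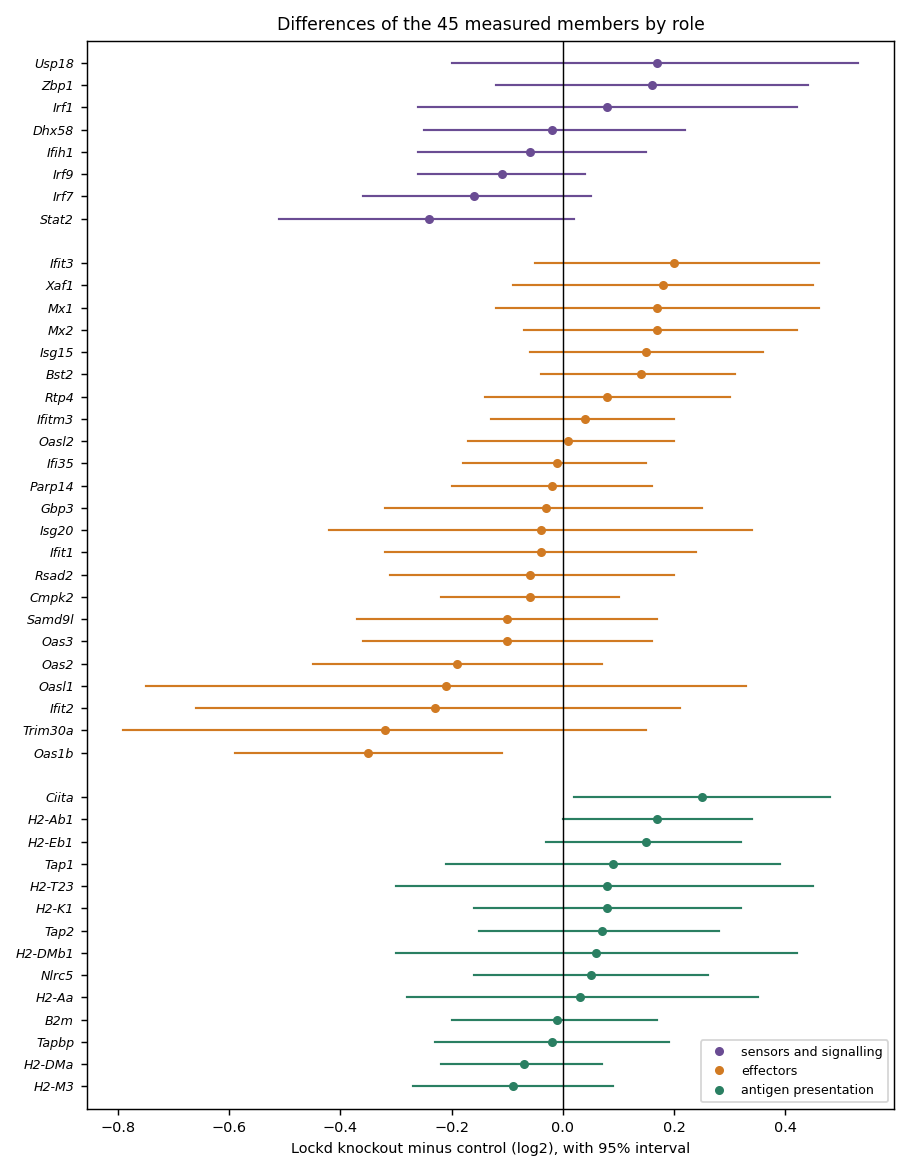
Difference of each of the 45 measured members, Lockd knockout minus control on the log2 scale (horizontal axis), with its 95% interval from limma, sorted within the 3 role groups. The intervals of Oas1b, Ciita and H2-Ab1 lie to one side of 0, and all intervals lie between -0.79 and 0.53.

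All 8 sensing and signalling genes lay above the median level. Of these, 3 were higher and 5 lower in knockout cells, with a median difference of -0.04 and 0 at an unadjusted p under 0.05. Stat2, which encodes a component of ISGF3, read 9.04, 9.07, 8.93 and 8.72 on the 4 knockout arrays, against 8.97, 9.24 and 9.34 on the 3 control arrays. The groups overlapped, because control replicate 1 lay among the knockout arrays. The difference was -0.24 (SE 0.12, 95% interval -0.51 to 0.02, limma adjusted p 0.999). Irf9, which encodes another component of ISGF3, read 7.95, 7.90, 7.97 and 7.94 in knockout cells, against 7.96, 8.05 and 8.14 in control cells, a difference of -0.11 (SE 0.07). Irf7, the factor that amplifies interferon production, read 6.46, 6.40, 6.45 and 6.35 in knockout cells, against 6.43, 6.53 and 6.76 in control cells, a difference of -0.16 (SE 0.09). It was -0.06 without control replicate 3. Stat2, Irf9 and Irf7 shared a pattern, with control replicate 3 the highest of the 7 arrays for each of them.

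Ifih1 encodes MDA5, a cytosolic sensor of long double-stranded RNA. It read 8.94, 9.03, 8.91 and 8.95 in knockout cells, against 8.85, 8.99 and 9.20 in control cells, and differed by -0.06 (SE 0.09). Control replicate 3 was again the highest array. Dhx58, which encodes the related helicase LGP2, averaged 5.93 ± 0.15 (SD, n = 4) in knockout and 5.94 ± 0.14 (SD, n = 3) in control cells. Usp18, a deconjugase of ISG15 that damps receptor signalling, read 7.15, 7.15, 7.55 and 7.37 in knockout cells, against 6.77, 7.29 and 7.35 in control cells. Its difference of 0.17 (SE 0.16) rested on control replicate 1, the lowest array, and was -0.02 without it. Zbp1, a sensor of nucleic acids in the Z form, read 6.36, 5.80, 5.93 and 6.04 in knockout cells, against 5.85, 5.87 and 5.89 in control cells. Knockout replicate 1 stood highest, and knockout replicates 3 and 4 also lay above every control array. The difference of 0.16 (SE 0.12) was 0.05 without knockout replicate 1. Irf1, the factor induced through GAS, averaged 5.98 ± 0.18 (SD, n = 4) in knockout and 5.90 ± 0.29 (SD, n = 3) in control cells.

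Among the 23 measured effectors, 9 were higher and 14 lower in knockout cells, with a median difference of -0.03. The mean level of 9 effectors (39.1%) exceeded the median over all genes, and background weighs more at the dimmer ones. Of these 23, Oas1b alone (4.35%) reached an unadjusted p under 0.05, a share near the 4.61% of all genes. It belongs to the family of 2′-5′ oligoadenylate synthetases, which answer double-stranded RNA, and its full-length form protects mice against flaviviruses. Oas1b read 5.60, 5.82, 6.01 and 5.83 in knockout cells, against 6.29, 6.16 and 6.05 in control cells. All 4 knockout arrays lay below all 3 control arrays, with the nearest values, 6.01 and 6.05, close together. The difference was -0.35 (SE 0.10, 95% interval -0.59 to -0.11), which as a change of the linear value is -21.7%. In limma the unadjusted p was 0.0089 and the adjusted p 0.999.

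The other members of the synthetase family lay nearer to 0. Oas2 read 5.60, 5.44, 5.35 and 5.23 in knockout cells, against 5.58, 5.42 and 5.78 in control cells, with overlapping groups and a difference of -0.19 (SE 0.11). Oas3 differed by -0.10 (SE 0.12) and Oasl2 by 0.01 (SE 0.08). Oasl1, which restrains translation of Irf7 mRNA, read 6.42, 6.13, 5.98 and 6.37 in knockout cells, against 6.76, 5.79 and 6.76 in control cells. Control replicate 2 was the lowest array and the other control arrays were the highest, so the knockout values fell inside the control range. The difference was -0.21 (SE 0.24), -0.54 without control replicate 2 and -0.05 without either of the other control arrays.

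The IFIT family, whose proteins bind foreign RNA 5′ ends, showed no common direction. Ifit3 read 6.72, 6.73, 7.12 and 6.90 in knockout cells, against 6.65, 6.79 and 6.55 in control cells, a difference of 0.20 (SE 0.11), with knockout replicates 3 and 4 above every control array. Ifit1 averaged 5.00 ± 0.15 (SD, n = 4) in knockout and 5.05 ± 0.23 (SD, n = 3) in control cells. Ifit2 averaged 3.86 ± 0.26 (SD, n = 4) in knockout and 4.09 ± 0.37 (SD, n = 3) in control cells, a difference of -0.23 (SE 0.19) that was -0.04 without control replicate 3 and -0.40 without control replicate 2. Ifit1 and Ifit3, whose promoters each hold 2 copies of the ISRE core, differed by -0.04 (SE 0.12) and 0.20 (SE 0.11). These 2 differences were not tested against each other.

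Isg15, the ubiquitin-like modifier, read 5.60, 5.89, 5.58 and 5.62 in knockout cells, against 5.59, 5.44 and 5.53 in control cells. Knockout replicate 2 stood well above the control arrays, replicates 1 and 4 lay just above them, and replicate 3 fell within their range. The difference of 0.15 (SE 0.09) was 0.08 without knockout replicate 2. Bst2, the tetherin that holds budding virus at the cell surface, read 6.47, 6.65, 6.58 and 6.67 in knockout cells, against 6.41, 6.41 and 6.55 in control cells, and differed by 0.14 (SE 0.08). The groups overlapped at control replicate 3. Isg20, an RNA exonuclease, read 8.10, 8.40, 8.07 and 7.99 in knockout cells, against 8.49, 7.79 and 8.27 in control cells, and differed by -0.04 (SE 0.17). Ifi35 read 9.64, 9.61, 9.70 and 9.62 in knockout cells, against 9.57, 9.78 and 9.61 in control cells, and differed by -0.01 (SE 0.07). Its dimmer probeset, at a mean level of 6.28, disagreed with a difference of 0.23 (SE 0.08, unadjusted limma p 0.0208). Parp14, an ADP-ribosyltransferase, averaged 7.83 ± 0.05 (SD, n = 4) in knockout and 7.85 ± 0.14 (SD, n = 3) in control cells.

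Trim30a, a restriction factor of the TRIM family, had the widest range of any member, 1.07. It read 3.79, 3.46, 3.65 and 3.72 in knockout cells, against 3.86, 4.53 and 3.54 in control cells. Control replicate 2 alone made the difference of -0.32 (SE 0.21), which was -0.04 without it and -0.54 without control replicate 3. The GTPases Mx1 and Mx2, which block viral nucleocapsids, each differed by 0.17 (SE 0.13 and 0.11). With arrays left out in turn, Mx1 ran from 0.07 to 0.23 and Mx2 from 0.10 to 0.29. The remaining effectors, Rsad2 (viperin), Cmpk2, Ifitm3, Rtp4, Xaf1, Gbp3 and Samd9l, ran from -0.10 for Samd9l to 0.18 for Xaf1, and none had an unadjusted p under 0.05.

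**Figure D3:**
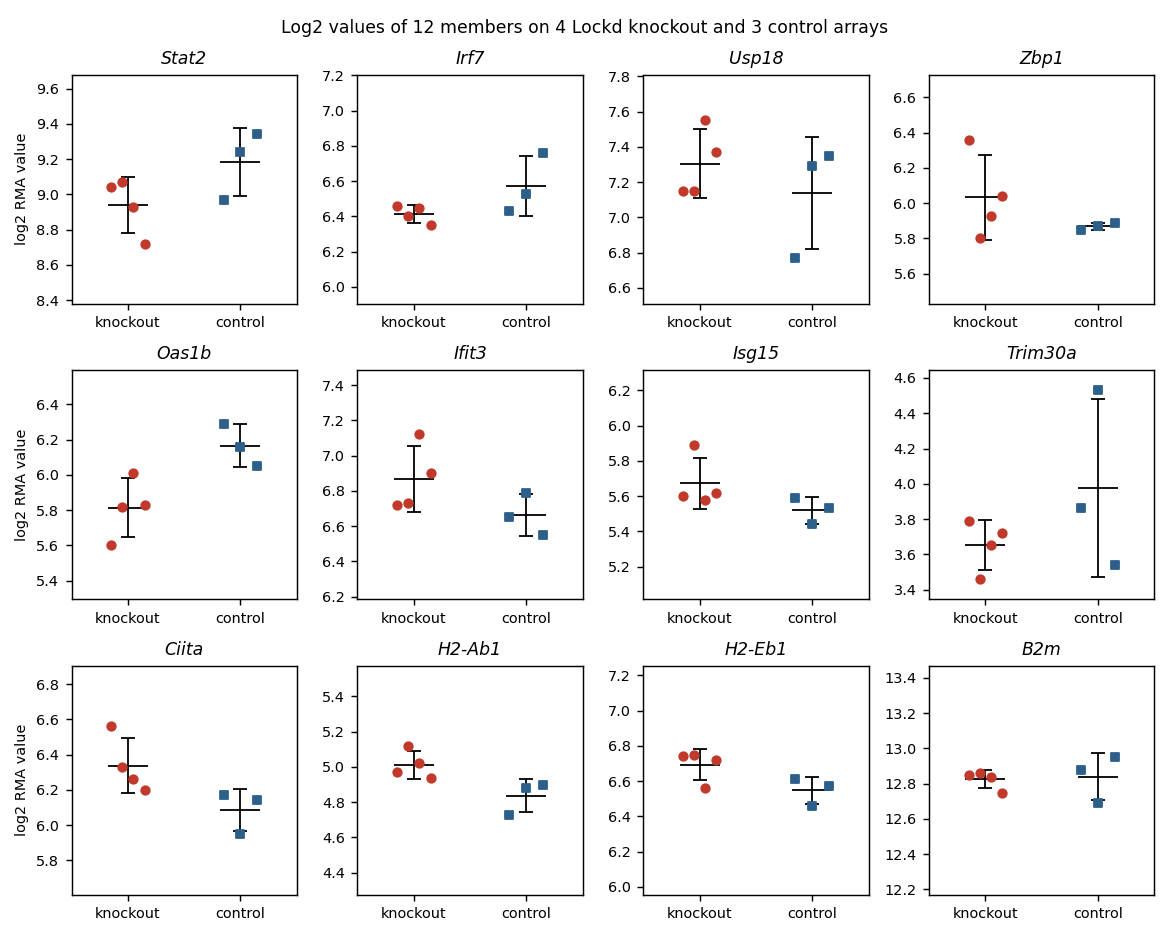
Log2 RMA value (vertical axis, each panel spanning 1.3 units) of 12 members on the 4 Lockd knockout arrays (circles) and the 3 control arrays (squares), with the group mean and SD as a horizontal line and bar. Oas1b, Ciita and H2-Ab1 do not overlap between the groups, while a single array stands farthest out for Zbp1 and for Trim30a.

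Of the 14 measured genes of antigen presentation, 10 were higher and 4 lower in knockout cells, with a median difference of 0.06. At an unadjusted p under 0.05 there were 2 (14.3%), both class II genes and both higher, where 4.61% of all genes reached that level and 2.24% were higher at it, and none passed. Ciita encodes the transactivator on which class II transcription depends. It read 6.56, 6.33, 6.26 and 6.20 in knockout cells, against 6.17, 5.95 and 6.14 in control cells. All knockout arrays lay above all control arrays, with 6.20 and 6.17 the nearest values. The difference was 0.25 (SE 0.10, 95% interval 0.02 to 0.48), or 18.9% higher. In limma the unadjusted p was 0.0375 and the adjusted p 0.999.

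H2-Ab1, the class II A beta chain, read 4.97, 5.12, 5.02 and 4.94 in knockout cells, against 4.73, 4.88 and 4.90 in control cells. The groups did not overlap, though 4.94 and 4.90 nearly met, and the difference was 0.17 (SE 0.08, unadjusted limma p 0.0492). Its level lay below the median of all genes, where background weighs more. H2-Eb1, the E beta chain, read 6.74, 6.75, 6.56 and 6.72 in knockout cells, against 6.61, 6.46 and 6.57 in control cells. Knockout replicate 3 fell within the control range, and the difference was 0.15 (SE 0.08). H2-Aa, the partner of H2-Ab1, averaged 4.37 ± 0.25 (SD, n = 4) in knockout and 4.33 ± 0.14 (SD, n = 3) in control cells, a difference of 0.03 (SE 0.14).

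The class II peptide editor is a dimer of the H2-DMa and H2-DMb chains. H2-DMa read 5.70, 5.70, 5.60 and 5.70 in knockout cells, against 5.73, 5.72 and 5.79 in control cells. The groups did not overlap, but the gap was small and the difference was -0.07 (SE 0.06, unadjusted limma p 0.277). H2-DMb1 read 3.76, 3.51, 3.75 and 3.14 in knockout cells, against 3.67, 3.38 and 3.40 in control cells, a difference of 0.06 (SE 0.16). Knockout replicate 4 was the lowest of all arrays. Over the 6 class II genes, 5 were higher and 1 lower, with a median difference of 0.10, and 2 of the 6, Ciita and H2-Eb1, lay above the median level. The B cell, macrophage and dendritic cell marker sums given above overlapped between the groups, and a contribution of such cells was not tested.

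MHC class I and its loading machinery lay close to 0. Over 8 measured genes, 5 were higher and 3 lower, the differences ran from -0.09 to 0.09 and 0 had an unadjusted p under 0.05. B2m, the light chain, read 12.85, 12.86, 12.84 and 12.75 in knockout cells, against 12.88, 12.69 and 12.95 in control cells. Its difference was -0.01 (SE 0.08, 95% interval -0.20 to 0.17), with the knockout arrays inside the control range. Tapbp, the tapasin gene, read 9.69, 9.85, 9.74 and 9.60 in knockout cells, against 9.59, 9.75 and 9.88 in control cells, again inside the control range, with a difference of -0.02 (SE 0.09). Its other probeset differed by 0.07 (SE 0.08).

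The transporter gene Tap1 read 8.05, 8.35, 8.20 and 8.31 in knockout cells, against 8.02, 7.94 and 8.45 in control cells. The control arrays spread more widely than the knockout arrays, and the difference of 0.09 (SE 0.13) was -0.01 without control replicate 2 and 0.24 without control replicate 3. Tap2, its partner, differed by 0.07 (SE 0.09). The heavy chain gene H2-K1 averaged 5.17 ± 0.06 (SD, n = 4) in knockout and 5.09 ± 0.22 (SD, n = 3) in control cells. Like H2-Ab1, it lay below the median level of all genes, where background weighs more. The non-classical class I gene H2-T23, which encodes Qa-1, read 6.30, 5.93, 6.36 and 5.89 in knockout cells, against 5.73, 6.30 and 6.10 in control cells, a difference of 0.08 (SE 0.16). In each group the values fell far apart. H2-M3, which presents formylated peptides, read 6.06, 6.16, 5.92 and 6.15 in knockout cells, against 6.12, 6.17 and 6.19 in control cells, a difference of -0.09 (SE 0.08). Nlrc5, the transactivator of class I genes, differed by 0.05 (SE 0.09).

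The members with an ISRE core in the promoter window were set beside those without. Of the 13 measured members with the core, 5 were higher and 8 lower in knockout cells, with a median difference of -0.03 and a range from -0.32 to 0.20. Of the 19 measured members with a window and no core, 8 were higher and 11 lower, with a median of -0.02 and a range from -0.23 to 0.18.

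The members were also compared between arrays of the same group. Control replicate 3 was the highest control array for 24 of the 45 members (53.3%), against 34.6% of all genes, and control replicate 2 the lowest for 21 (46.7%), against 38.1%. The median deviation of the members from their own means was 0.08 on control replicate 3, -0.09 on control replicate 2 and -0.02 on control replicate 1, while the knockout arrays lay between -0.03 and 0.01. For the sensing and signalling genes the control arrays ran from -0.12 on replicate 1 to 0.19 on replicate 3. Among the knockout arrays, replicate 4 was the highest for 7 members (15.6%) and the lowest for 14 (31.1%), against 23.1% and 23.8% of all genes. The differences of 9 members changed sign without control replicate 2 and of 9 without control replicate 3.

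**Figure D4:**
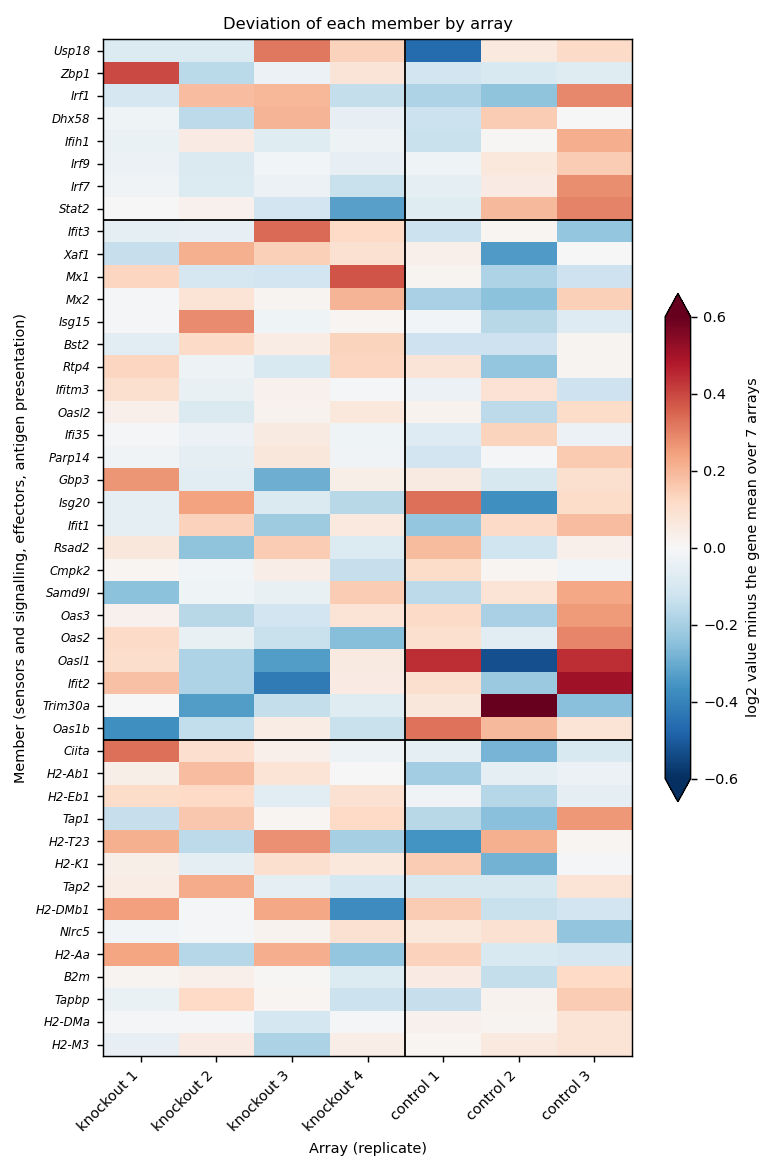
Log2 value of each member minus its mean over the 7 arrays (colour, red above and blue below the mean, saturated beyond 0.6), with the 4 Lockd knockout arrays left of the 3 control arrays and the role groups split by horizontal lines. The column of control replicate 3 is mostly red, with a median of 0.08, and no role group shows a block of one colour across all knockout arrays.

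The other genes of these pathways, were taken from 6 lists. In limma 0 of the 107 distinct measured genes passed, and 5 (4.67%) had an unadjusted p under 0.05, 1 higher and 4 lower, against 4.61% of all genes. Interferon ligands and receptors had a median difference of -0.02 over 15 genes. Il10rb, a chain of the interferon lambda and interleukin-10 receptors, read 10.40, 10.44, 10.34 and 10.26 in knockout cells, against 10.70, 10.50 and 10.53 in control cells. Its knockout arrays were lower without overlap, as for 2.54% of all genes, and it differed by -0.22 (SE 0.08, unadjusted limma p 0.0236). Ifng, the gene of type II interferon, averaged 5.62 ± 0.09 (SD, n = 4) in knockout and 5.44 ± 0.10 (SD, n = 3) in control cells, with overlapping groups and a level below the median of all genes. Its difference was 0.18 (SE 0.08, unadjusted limma p 0.0453). The type I receptor genes Ifnar1 and Ifnar2 differed by -0.10 (SE 0.07) and -0.05 (SE 0.06).

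In the JAK-STAT relay and its brakes, all 10 measured genes were lower in knockout cells, as were 10592 of all 22180 genes. The median was -0.05. All but Stat3 lay between -0.06 and -0.01, each difference smaller than its SE. Stat3, which carries interleukin and cytokine receptor signals, read 9.93, 10.15, 9.62 and 9.56 in knockout cells, against 10.22, 10.39 and 10.11 in control cells. Knockout replicate 2 overlapped the control arrays, and the difference was -0.42 (SE 0.15, unadjusted limma p 0.02, adjusted p 0.999). Jak1 differed by -0.05 (SE 0.06).

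Nucleic acid sensing genes had a median of -0.01 over 20 genes, with 10 higher and 10 lower. The kinase gene Tbk1 differed by -0.10 (SE 0.07), the adaptor gene Mavs by 0.14 (SE 0.10) and Samhd1, which depletes nucleotides, by 0.01 (SE 0.07). Genes that supply peptides for class I had a median of 0.03 over 10 genes. The immunoproteasome genes Psmb8 and Psmb9 differed by 0.07 (SE 0.07) and 0.13 (SE 0.19), and the chaperone gene Canx by 0.03 (SE 0.06). With arrays left out in turn, Psmb8 ran from 0.00 to 0.11 and Psmb9 from 0.03 to 0.30. Neither list had a gene at an unadjusted p under 0.05.

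Class II partners and promoter factors had a median of -0.01 over 13 genes. Of these, 1 (7.69%) had an unadjusted p under 0.05, against 4.61% of all genes. Ifi30, which encodes the lysosomal thiol reductase GILT that unfolds antigens for class II loading, read 8.57, 8.35, 8.59 and 8.48 in knockout cells, against 8.96, 9.36 and 8.90 in control cells. All knockout arrays lay below all control arrays, as they did for 2.54% of all genes. The difference was -0.57 (SE 0.12, 95% interval -0.84 to -0.30), which as a change of the linear value is -32.7%. Its unadjusted limma p was 0.0012, the smallest of any gene in these lists, and its adjusted p of 0.969 did not pass. Leaving out control replicate 2, the highest array, gave -0.43. The NF-Y subunit genes Nfyb and Nfya differed by 0.18 (SE 0.08) and -0.05 (SE 0.06).

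Further interferon-stimulated genes had a median of -0.01 over 40 genes, with 18 higher and 22 lower and 1 (2.5%) at an unadjusted p under 0.05, against 4.61% of all genes. That gene was Irgm2, an immunity-related GTPase gene, which read 6.55, 6.49, 6.67 and 6.45 in knockout cells, against 6.71, 6.94 and 6.95 in control cells. The groups did not overlap, as for 5.19% of all genes, and the difference was -0.32 (SE 0.09, unadjusted limma p 0.00596, adjusted p 0.999). Trim21, an intracellular antibody receptor gene, differed by 0.14 (SE 0.08). Lgals9, the galectin-9 gene, read 12.51, 12.52, 12.05 and 12.51 in knockout cells, against 12.69, 11.83 and 12.60 in control cells, a difference of 0.02 (SE 0.21).

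**Figure D5:**
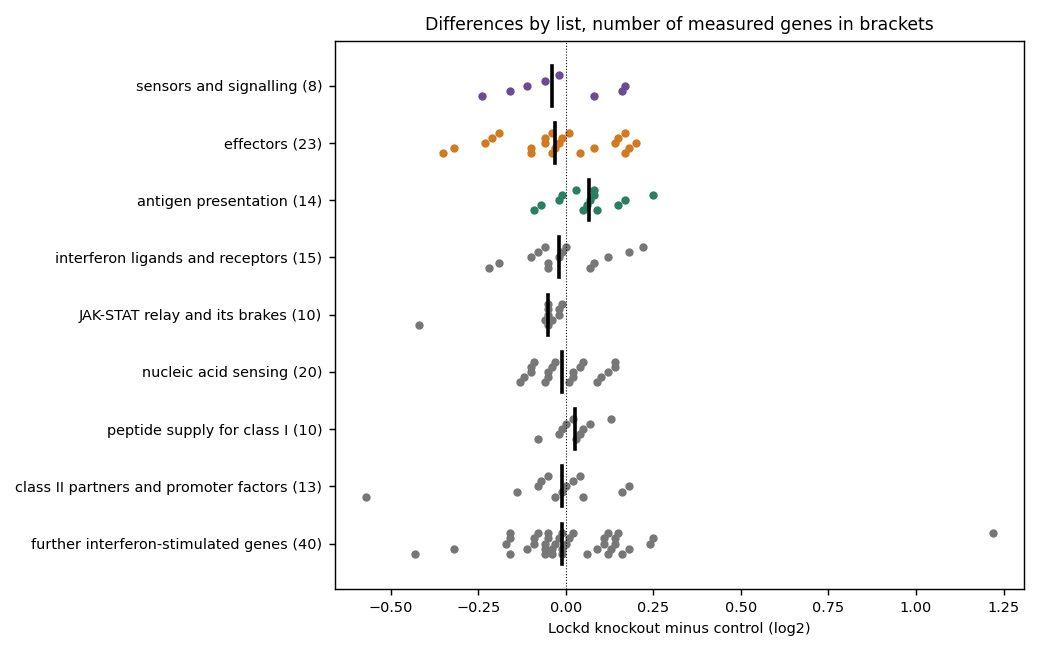
Difference of each measured gene, Lockd knockout minus control on the log2 scale (horizontal axis), for the 3 role groups of members (coloured) and 6 lists of other pathway genes (grey), with the list median as a vertical bar. The medians of these 9 lists lie between -0.05 and 0.06, and the points farthest from 0 are Ifi30 at -0.57 and Gbp7 at 1.22.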

How the data were processed

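RNA was hybridised to Mouse Gene 2.0 ST arrays (Affymetrix), 4 from Lockd knockout and 3 from control G1E cells, grouped by sample title. The deposited log2 values were made by the authors with RMA in the Expression Console software of Affymetrix, per the submitters' processing notes. Neither its version nor the genome build of the probesets was stated there. The value table held 41345 probesets, of which 23521 had 1 gene symbol in the platform annotation and covered 22180 genes. A gene was read from its probeset with the highest mean. Differences, knockout minus control, were tested with limma 3.58.1 under R 4.3.3 (lmFit and eBayes, two-sided, Benjamini-Hochberg adjustment over 23521 probesets, threshold 0.05, no covariate, no filter), and the fit was tested on simulated data. The number of arrays limits the precision. Promoter sequences and motif counts come from RefSeq windows of GRCm38.p6. The older symbols Mb21d1 and Tmem173 were read as Cgas and Sting1.

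The members and lists were chosen with earlier results of these data known. Members named array by array were, in each role group, the 5 with the smallest p, the 3 brightest, the 2 with the widest range and those without overlap. From each pathway list the 2 smallest p and the brightest were named. Ifnar1, Ifnar2 and Gbp7 were chosen after their values were seen. Alternatives were another variance moderation, a filter on dim probesets, all probesets, quantile normalization, median centring, array weights, the mean of a gene's probesets, a replicate block and leaving out each array.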

Additional observations from a re-analysis of the deposited data

Results flagged for a closer look

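Among the 4 knockout arrays, 1 array stood apart by Dixon's test at its 95% critical value for 4 of 63 genes checked (6.35%), where chance flags about 5%. Isg15 read 5.89 on knockout replicate 2 and 5.58 to 5.62 on the others. H2-DMa read 5.60 on knockout replicate 3 and 5.70 on the others. On the same array Lgals9 read 12.05, against 12.51 to 12.52 on the others, and Lockd read 4.17, against 5.09 to 5.15.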

How the results depend on the processing

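No member and no gene of the pathway lists passed in limma under any of the 15 alternatives, and the smallest adjusted p of a member was 0.604, for Oas1b without control replicate 3. Members at an unadjusted p under 0.05 numbered 2 or 3 under the 7 settings that keep all arrays, 2 with the replicate block and 1 to 5 with arrays left out (1 without knockout replicate 1 or 2, 5 without control replicate 3). Probesets called over the whole table numbered 0 with all probesets of the array tested, 0 with the replicate block and 0 to 2 with arrays left out. The block drops knockout replicate 4, which has no control of its number, and leaving out that array alone also gave 0. With arrays left out, the median of the genes of antigen presentation ran from 0.00 (without control replicate 2) to 0.09 and that of all members from -0.01 to 0.04. Likewise, it was -0.11 to 0.01 for sensing and signalling and -0.04 to 0.00 for effectors. The labels do not say whether same-numbered arrays were paired. Their deviations from the group means correlated at 0.02, 0.06 and -0.10. Differently numbered arrays were not set beside them, so these values cannot decide it. Some signs turned. With the replicate block, Isg20 was 0.01, Oasl2 0.00, B2m 0.01, Tapbp 0.02 and Lgals9 -0.01. With array weights, Dhx58 was 0.03, Ifit1 0.03, Oasl2 -0.01, Ifi35 0.02, Parp14 0.01, Tapbp 0.01, H2-Aa -0.02, H2-DMb1 -0.02 and Lgals9 -0.11. With arrays centred on their median, Oasl2 and Samhd1 were -0.01 each. With the mean of a gene's probesets, Ifi35 was 0.11 and Tapbp 0.02. With arrays left out in turn, the differences that changed sign ran from -0.02 to 0.25 for Irf1, from -0.02 to 0.27 for Usp18, from -0.14 to 0.04 for Ifih1, from -0.09 to 0.05 for Dhx58, from -0.17 to 0.04 for Ifit1, from -0.24 to 0.11 for Isg20, from -0.13 to 0.02 for Rsad2, from -0.06 to 0.07 for Oasl2, from -0.05 to 0.05 for Ifi35, from -0.01 to 0.09 for Ifitm3, from -0.01 to 0.14 for Rtp4, from -0.12 to 0.06 for Gbp3. The others that did ran from -0.08 to 0.06 for Parp14, from -0.04 to 0.18 for H2-K1, from -0.08 to 0.20 for H2-T23, from -0.09 to 0.04 for B2m, from -0.01 to 0.24 for Tap1, from -0.09 to 0.05 for Tapbp, from -0.04 to 0.11 for H2-Aa, from -0.01 to 0.19 for H2-DMb1, from -0.05 to 0.11 for Nlrc5, from -0.04 to 0.06 for Samhd1, from -0.25 to 0.18 for Lgals9. The sign held for Oas2 (-0.27 to -0.10), Xaf1 (0.06 to 0.25) and Samd9l (-0.20 to -0.01), while Oas3 ran from -0.22 to 0.00 and Tap2 from 0.00 to 0.13. The cause was not tested.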

Other observations

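Gbp7, an interferon-inducible GTPase gene that was singled out after its values were seen, had the widest range of the pathway genes. It read 9.76, 6.92, 5.02 and 8.64 on knockout replicates 1 to 4, against 6.25, 6.97 and 5.89 on control replicates 1 to 3. Its difference of 1.22 (SE 0.97, unadjusted limma p 0.243) did not pass, and the knockout arrays lay both above and below the control range. Lgals3bp, also singled out after its values were seen, read 8.46, 8.25, 8.90 and 8.28 in knockout cells, against 7.38, 8.07 and 9.49 in control cells, with a spread among control arrays of 1.07 (SD, n = 3).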
